A study of Mus musculus with 16 samples.

Results

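Cholesterol synthesis enzymes were examined in the mouse hippocampus after learned helplessness, a procedure in which some mice stop escaping a foot shock that they could avoid. The genes Hmgcs1, Sqle, Idi1, Fdft1, Fdps, Lss and Cyp51 were taken by name, and all 7 were present among the 18287 gene names of the data. They were held by 23 of the 80137 assembled transcripts. None of the 7 takes cholesterol up into cells. Receptors and carriers of uptake were therefore followed in a list of their own, beside the other enzymes of the route.

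RNA was sequenced from both hippocampi of 16 male C57BL/6 mice aged 3 months, with 1 library per mouse and 4 mice in each of 4 groups. Homecage (HC) mice were neither handled nor tested. Control (Ctrl) mice received no inescapable shock and were tested with 30 escapable shock trials. Mice called learned helpless (LH) and mice called non-learned helpless (NLH) both had the same 180 inescapable shocks of 0.4 mA and the same 30 test trials, and were separated afterwards by how they behaved in the test, so that LH and NLH were not assigned at random. All groups were killed at the same time point after the test session. The values were FPKM (fragments counted on a transcript, divided by its length and by the mapped fragments of the library) and were summed here over the transcripts of each gene. In bulk tissue, fewer cells that make a transcript and less of it per cell cannot be told apart.

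Cholesterol in the adult brain is made almost wholly inside the brain, since the blood-brain barrier keeps out circulating lipoproteins. Acetyl units are joined and reduced to mevalonate, mevalonate is turned into isoprene units, these are assembled into squalene, and squalene is closed into the ring system of the sterols. The genes of the route are known to be controlled together: when sterols in the endoplasmic reticulum are low, SCAP escorts the transcription factor SREBP2 (the product of Srebf2) to the Golgi, where it is cut and released to act at sterol regulatory elements, usually beside sites of NF-Y and Sp1.

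The promoters of Hmgcs1 and Lss are shown as those of the members with the highest and the lowest level, out of the 4 members with a promoter sequence in RefSeq (build GRCm38.p6). Both stretches lie on the plus strand and end before the first annotated base of the gene. Capitals mark matches to TCACNCCAC (a sterol regulatory element), CCAAT (bound by NF-Y) and GGGCGG (bound by Sp1) on either strand, so that ATTGG and CCGCCC are the opposite-strand forms.
Hmgcs1, chr13:119690101-119690350: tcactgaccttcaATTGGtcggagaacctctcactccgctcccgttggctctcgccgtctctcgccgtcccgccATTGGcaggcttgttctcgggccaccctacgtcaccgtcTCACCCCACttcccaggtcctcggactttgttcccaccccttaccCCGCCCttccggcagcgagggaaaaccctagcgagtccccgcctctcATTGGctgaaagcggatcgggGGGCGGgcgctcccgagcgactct
Lss, chr10:76531355-76531587: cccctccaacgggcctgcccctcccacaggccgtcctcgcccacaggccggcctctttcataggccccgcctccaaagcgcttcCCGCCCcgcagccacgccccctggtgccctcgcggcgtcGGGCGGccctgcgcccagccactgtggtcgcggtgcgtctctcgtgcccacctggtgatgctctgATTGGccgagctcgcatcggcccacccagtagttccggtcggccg

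The Hmgcs1 stretch held the sterol element starting 137 bases before the RefSeq start, with 3 CCAAT boxes and 2 GGGCGG boxes around it. Lss held 2 GGGCGG boxes and 1 CCAAT box and no match to the sterol element. Idi1 and Cyp51 each held CCAAT and GGGCGG within the window of 250 bases before to 50 bases after their starts and, like Lss, had no match to the sterol element. The element was thus found in 1 of 4 members. Over all 32851 promoters of that length, 1.24% held TCACNCCAC, 37.4% held CCAAT and 35.7% held GGGCGG. No motif overlapped another in the printed stretches. Entries for Sqle, Fdft1 and Fdps were not used here. A match is only a run of letters and says nothing of binding.

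The libraries differed in overall level in a way that touches every value below. A median-ratio size factor (the median, over genes above 0 in every mouse, of a mouse's FPKM divided by the geometric mean of all mice) ranged from 0.822 in LH mouse 4 to 1.201 in LH mouse 2. In Ctrl it lay between 0.945 and 1.03, and in NLH between 0.987 and 1.14. The number of transcripts listed at 0 was 10846 in LH mouse 3 and 15504 in LH mouse 4, against 4872 to 7352 in the other 14 mice. Depth, estimated from steps in the FPKM of single-transcript loci, lay between 20150000 and 38100000 fragments per mouse and was lowest in LH mouse 4. Each comparison is therefore given on FPKM as deposited and on FPKM divided by the size factor.

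Hmgcs1 (chr13:119690379-119708260) encodes the cytosolic synthase that makes HMG-CoA, the compound that is reduced to mevalonate, and had the highest level of the 7 genes, at a mean of 25.1 FPKM over 16 mice. It measured 25.3, 22.0, 21.7 and 25.7 FPKM in HC mice 1 to 4, and 21.3, 23.0, 22.1 and 21.4 FPKM in the Ctrl mice. It measured 31.3, 30.3, 26.9 and 22.0 FPKM in the NLH mice, and 31.5, 28.8, 26.0 and 22.7 FPKM in the LH mice. In each shocked group, 3 mice lay above all Ctrl mice and mouse 4 lay within the Ctrl range, so the groups overlapped. The means were 22.0 ± 0.788 in Ctrl, 27.6 ± 4.203 in NLH and 27.3 ± 3.77 FPKM in LH (SD, n = 4), that is 1.26 times Ctrl in NLH and 1.24 times Ctrl in LH.

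Idi1 (chr13:8885501-8892451) encodes the isomerase that makes the reactive isoprene unit. Its levels were 5.73, 6.06, 5.34 and 4.83 FPKM in HC and 2.89, 4.74, 5.07 and 4.59 FPKM in Ctrl. They were 9.24, 5.34, 6.60 and 5.35 FPKM in NLH and 7.12, 5.57, 5.46 and 3.17 FPKM in LH. All 4 NLH mice were above all 4 Ctrl mice, the mean being 1.54 times that of Ctrl, while LH mouse 4 fell within the Ctrl range. The spread of Idi1 was wide in the shocked groups, with an SD of 1.83 FPKM in NLH and 1.63 FPKM in LH against 0.976 FPKM in Ctrl.

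Fdps (chr3:89093588-89101959), which joins isoprene units into farnesyl diphosphate, followed another order. Its mean was 12.1 ± 1.28 FPKM in LH and 11.2 ± 2.22 in NLH, against 10.0 ± 0.813 in Ctrl and 9.69 ± 0.631 in HC (SD, n = 4). The LH mice held 12.3, 13.8, 10.9 and 11.4 FPKM, and the Ctrl mice 9.69, 11.2, 9.68 and 9.43 FPKM. Of the 4 LH mice, 3 were above every Ctrl mouse, and on the deposited values Fdps was the only member whose highest group mean was that of LH. With size factors Hmgcs1 was another, at 26.5 in LH against 26.2 in NLH. Transcripts of Rusc1, a gene for a signalling adaptor, lie in the same assembled locus as Fdps, and since the strand of the reads is not stated in the sources used here, reads shared by the 2 genes cannot be told apart.

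Fdft1 (chr14:63145150-63179578) encodes squalene synthase, the first enzyme that serves sterols alone. Its mean was 9.32 ± 1.16 FPKM in NLH and 8.02 ± 1.36 in LH, against 7.73 ± 0.949 in HC and 7.54 ± 0.904 in Ctrl (SD, n = 4). NLH mice 1 to 3 held 9.70, 9.90 and 10.1 FPKM, above all HC and Ctrl mice, and NLH mouse 4 held 7.60 FPKM.

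Sqle (chr15:59315077-59331192) encodes squalene epoxidase, which adds the oxygen that ring closure needs. It measured 7.89, 6.60, 6.30 and 8.10 FPKM in HC and 5.37, 6.84, 6.00 and 6.15 FPKM in Ctrl. It measured 8.16, 8.32, 8.04 and 6.42 FPKM in NLH and 8.85, 7.34, 7.20 and 6.59 FPKM in LH. As with Hmgcs1, mice 1 to 3 of both shocked groups lay above all Ctrl mice and mouse 4 of both lay inside the Ctrl range.

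Lss (chr10:76531588-76557138) encodes lanosterol synthase, which closes the ring, and it had the lowest level of the 7, with a mean of 3.85 FPKM. HC mice held 5.51, 7.09, 3.69 and 3.24 FPKM, and Ctrl mice held 2.416, 3.64, 3.44 and 3.57 FPKM. NLH mice ranged from 2.68 to 4.49 FPKM and LH mice from 1.95 to 4.69 FPKM. All 4 groups overlapped, and on the deposited values Lss was the only member whose highest group mean was that of HC. With size factors Sqle was another, at 7.36 in HC against 7.34 in NLH and in LH.

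Cyp51 (chr5:4081145-4104746) encodes the lanosterol demethylase that follows ring closure. It measured 4.52, 4.34, 3.90 and 5.11 FPKM in Ctrl and 5.56, 6.23, 6.99 and 5.21 FPKM in NLH. The LH mice held 6.65, 5.99, 4.87 and 4.33 FPKM, and the HC mice ranged from 3.70 to 5.72 FPKM. NLH and Ctrl did not overlap, at means of 6.00 ± 0.787 and 4.47 ± 0.504 FPKM (SD, n = 4), while LH mice 3 and 4 lay within the Ctrl range.

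**Figure D1:**
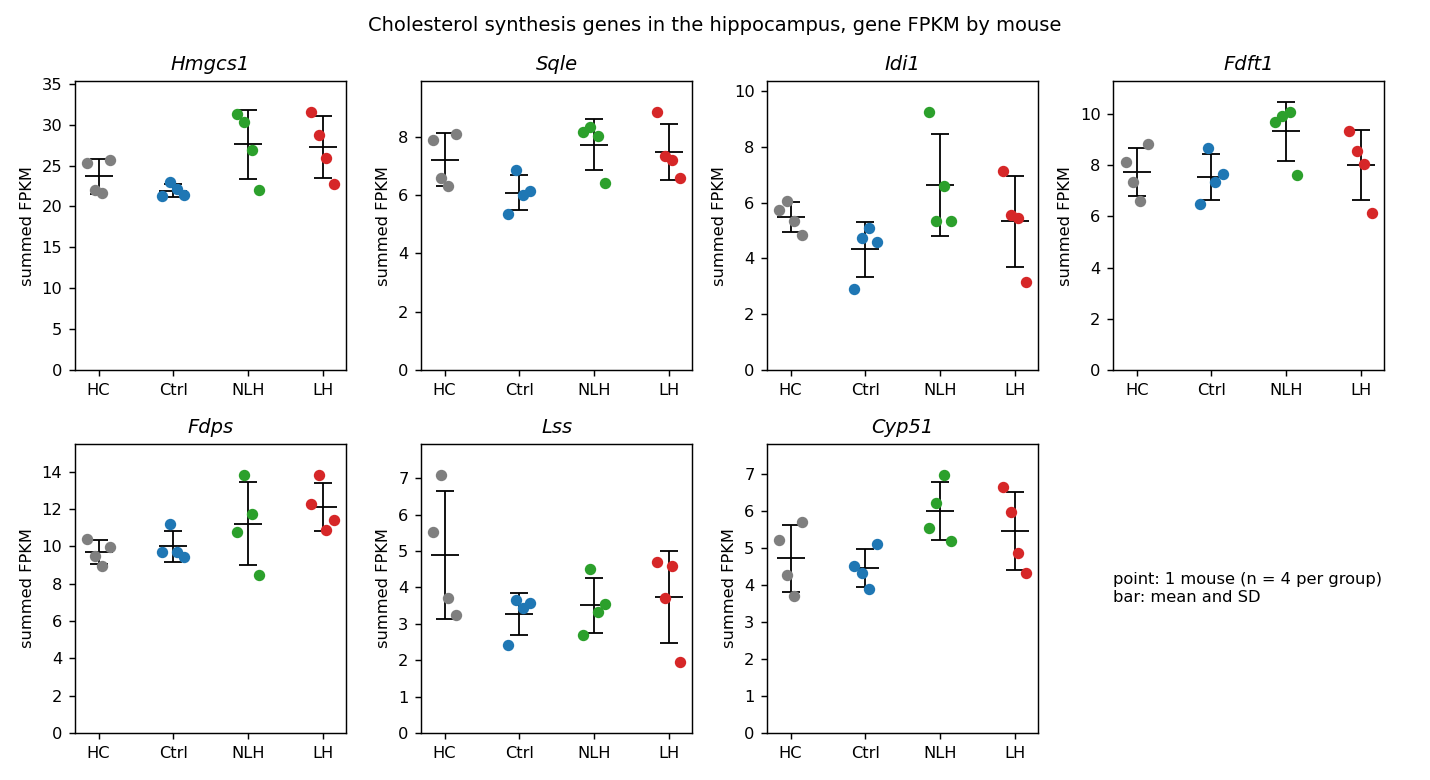
Summed FPKM of each member (vertical axis, starting at 0) by group, with 1 point per mouse, mice 1 to 4 from left to right, and a bar for the mean and SD of 4 mice. NLH and Ctrl are separated in Idi1 and Cyp51, and in every panel the Ctrl mean is below the NLH and LH means.

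The comparison of Ctrl with HC asks what testing and handling alone went with. Relative to HC, 6 of the 7 members had lower levels in Ctrl and Fdps a higher one, with a median log2 difference of -0.11 against 0.03 over the 10436 genes with a mean of at least 1 FPKM. The sizes ran from -0.52 ± 0.28 (SE) in Lss and -0.36 ± 0.23 in Idi1 to 0.04 ± 0.13 in Fdps, in limma on log2(FPKM + 0.1) of 16 mice. No member reached an adjusted p under 0.05, and 0 members against 2.7% of all genes reached an unadjusted p under 0.05. Over all genes, 0% passed after adjustment.

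Divided by the size factors, 2 members, Sqle at -0.27 ± 0.10 and Lss at -0.54 ± 0.25, reached an unadjusted p under 0.05, beside 4.23% of all genes. On that scale all 4 Ctrl mice were below all 4 HC mice in Hmgcs1 and Sqle, as they were in 2.89% of all genes. The exact permutation test gave p = 0.0286 for each of these, two-sided, the smallest value that 4 mice against 4 can give. The adjusted p of limma was 1 for all 7 members on both scales. On the deposited values 1 member reached an unadjusted p under 0.05 without HC mouse 3, HC mouse 4 or LH mouse 4.

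NLH vs. Ctrl asks what inescapable shock went with in mice that still escaped. All 7 members were higher in NLH, with a median log2 difference of 0.32 on the deposited values and 0.24 on the scaled ones. Over genes with a mean of at least 1 FPKM the medians were 0.08 and -0.00083, and 66.9% and 49.7% of these genes were higher in NLH. Hmgcs1 differed by 0.32 ± 0.12 (SE), Sqle by 0.34 ± 0.13, Idi1 by 0.60 ± 0.23 and Cyp51 by 0.42 ± 0.16. These 4 of 7 members reached an unadjusted p under 0.05, all of them higher in NLH, against 5.59% of all genes in either direction and 4.43% in that direction. With an unnamed transcript of the Idi1 locus added, Idi1 no longer reached it and 3 of 7 were left.

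None passed after adjustment over all genes, where 0.00547% of genes did: the adjusted p of limma was 0.73 for Hmgcs1, Sqle and Idi1 and 0.75 for Cyp51. Of the 7 members, 2, Idi1 and Cyp51, had all NLH mice above all Ctrl mice, as did 4.76% of all genes. Their exact permutation p was 0.0286, two-sided, and 0.0857 for Hmgcs1, 0.0571 for Sqle and 0.0857 for Fdft1. The count of 4 fell to 2 without Ctrl mouse 1, NLH mouse 1 or NLH mouse 2, and was 6 without NLH mouse 4. No share of all genes is given for these fits. Fdft1 differed by 0.30 ± 0.14, Fdps by 0.14 ± 0.13 and Lss by 0.09 ± 0.28 on the log2 scale.

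With size factors 5 of 7 members reached an unadjusted p under 0.05, against 6.99% of all genes, Fdft1 being added at 0.22 ± 0.10. The smallest adjusted p of a member was then 0.50, for Cyp51 at 0.34 ± 0.12. NLH and Ctrl remained apart in Cyp51 on this scale, from 5.26 to 6.16 against 3.86 to 5.07, as in 3.52% of all genes, and overlapped in Idi1. The largest scaled values of Hmgcs1, Idi1 and Fdft1 were all those of NLH mouse 1, at 31.8, 9.36 and 9.83.

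LH vs. Ctrl, the comparison of helpless mice with tested controls, uses the same 4 Ctrl mice as NLH vs. Ctrl, so the values of both comparisons are not independent. All 7 members were again higher, with a median log2 difference of 0.27 on the deposited values and 0.24 on the scaled ones, beside 0.03 and -0.0063 over genes with a mean of at least 1 FPKM. Hmgcs1 differed by 0.30 ± 0.12 (SE) and Sqle by 0.29 ± 0.13. These 2 of 7 reached an unadjusted p under 0.05, both higher in LH, against 11.5% of all genes in either direction and 7.03% in that direction. The adjusted p of limma was 0.35 for Hmgcs1 and 0.39 for Sqle, and 0% of all genes passed after adjustment.

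Fdps differed by 0.27 ± 0.13, Idi1 by 0.27 ± 0.23, Cyp51 by 0.27 ± 0.16, Lss by 0.13 ± 0.28 and Fdft1 by 0.08 ± 0.14 on the log2 scale. In no member did all LH mice lie above all Ctrl mice, against 4.05% of all genes. With size factors Fdps joined Hmgcs1 and Sqle, giving 3 of 7 at an unadjusted p under 0.05 against 15.8% of all genes, and all 4 LH mice were above all 4 Ctrl mice in Hmgcs1, at 23.9 to 27.7 against 21.3 to 22.5, as in 4.17% of all genes.

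The count of 2 was 0 without Ctrl mouse 1, Ctrl mouse 4 or LH mouse 1, it was 1 without Ctrl mouse 3 or LH mouse 2, and it was 5 without LH mouse 4. No share of all genes is given for these fits. The count also moved with LH mice 3 and 4 left out together, the 2 libraries with many transcripts at 0. Without them, and with FPKM as deposited, 5 of 7 members reached an unadjusted p under 0.05 against 24.3% of all genes, and Hmgcs1 passed after adjustment at 0.46 ± 0.12 (limma adjusted p = 0.048) along with 5.42% of genes. The 2 LH mice then left, mice 1 and 2, had the highest size factors of all mice. When size factors were applied to the same 14 mice, 0 of 7 members reached an unadjusted p under 0.05, against 12.3% of all genes, while 0.0712% of genes passed after adjustment. Hmgcs1 then differed by 0.22 ± 0.11.

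LH vs. NLH is the comparison within the shocked mice. The members showed no shared direction: 5 were lower in LH and 2 higher, with a median log2 difference of -0.05, the value also found over genes with a mean of at least 1 FPKM. Idi1 differed by -0.33 ± 0.23 (SE), Fdft1 by -0.22 ± 0.14, Cyp51 by -0.14 ± 0.16 and Fdps by 0.13 ± 0.13. Hmgcs1 differed by -0.02 ± 0.12, with a 95% confidence interval of -0.27 to 0.24, and so differences of up to that size in either direction lay within the interval. None of 7 members reached an unadjusted p under 0.05, against 7.54% of all genes on the deposited values and 10.4% on the scaled values, and 0.0109% of genes passed after adjustment. Without NLH mouse 4, 1 member reached an unadjusted p under 0.05.

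**Figure D2:**
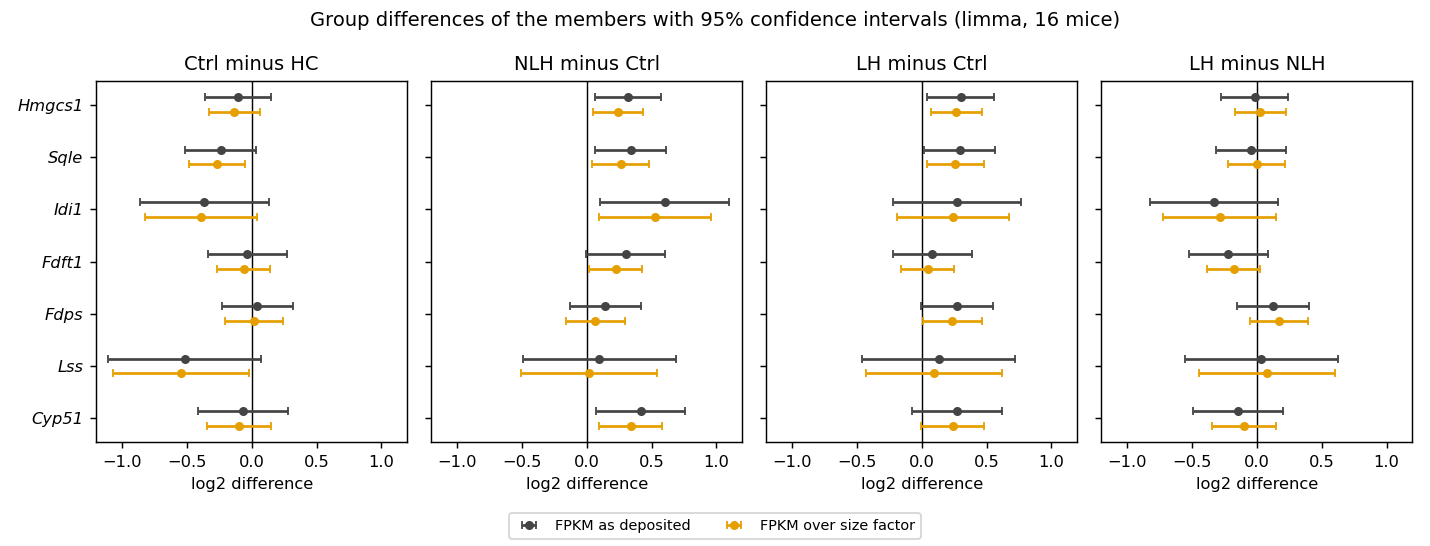
Log2 difference of each member (horizontal axis) in the 4 comparisons, with limma's estimate as a point and its 95% confidence interval as a bar, on FPKM as deposited (grey) and on FPKM over the size factor (orange). All 7 estimates lie to the right of 0 in NLH minus Ctrl and LH minus Ctrl. The intervals lie wholly above 0 for 4 of 7 members as deposited and 5 of 7 scaled in NLH minus Ctrl, and for 2 of 7 and 3 of 7 in LH minus Ctrl.

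The size factor is made from the genes themselves, so that the deposited level of most genes moves with it. Over 16 mice Pearson's r with the log2 size factor was 0.77 for Fdft1, 0.73 for Cyp51, 0.62 for Hmgcs1, 0.57 for Fdps, 0.55 for Sqle, 0.51 for Idi1 and 0.36 for Lss, with Spearman's rho of 0.76, 0.71, 0.59, 0.56, 0.55, 0.30 and 0.25. The median r over the 10436 genes with a mean of at least 1 FPKM was 0.57, so the members lay on both sides of it. Without LH mice 2 and 4, whose factors were farthest from the median, r lay between 0.63 and 0.78 in 5 members, and was 0.36 in Idi1 and 0.088 in Lss. Within groups, after the group means were removed, r lay between 0.52 and 0.78 in all 7, beside a median of 0.64 over the same 10436 genes. These are descriptions and carry no test.

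**Figure D3:**
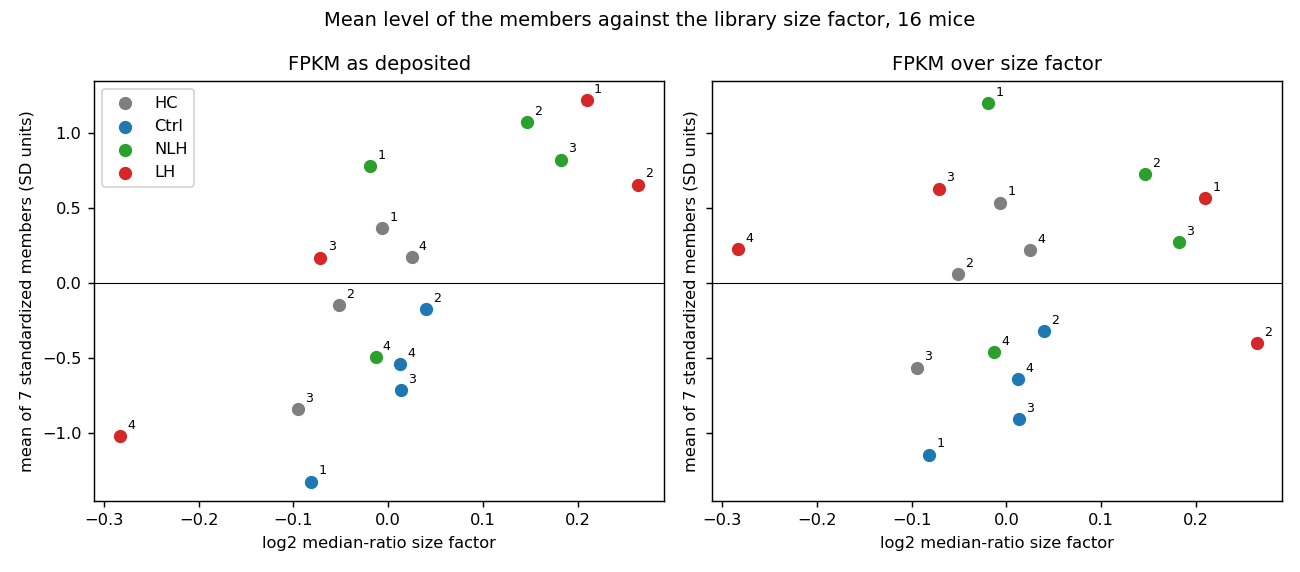
Mean of the 7 members' standardized log2 values in each mouse (vertical axis, in SD units) against the log2 size factor (horizontal axis), coloured by group and numbered by mouse, for FPKM as deposited (left) and over the size factor (right). On the left LH mouse 4 is at -1.02 and LH mouse 1 at 1.22, and on the right they are at 0.23 and 0.57, while the 4 Ctrl mice lie below 0 in both.

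On the mean of the 7 standardized values, Ctrl mice ranged from -1.33 to -0.17 as deposited and from -1.14 to -0.32 when scaled. NLH mice ranged from -0.49 to 1.07 and from -0.46 to 1.198, and LH mice from -1.02 to 1.22 and from -0.40 to 0.63. HC mice lay between, from -0.84 to 0.37 and from -0.56 to 0.54, and overlapped every other group.

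At the level of transcripts, 14 of the 23 member transcripts held at least 10% of their gene's FPKM or were called in a comparison. Hmgcs1 and Fdft1 were represented by 1 transcript each, ENSMUST00000179869.1 and ENSMUST00000054963.9. A single coding transcript carried 91.5% of Sqle (ENSMUST00000022977.13), 97.6% of Fdps (ENSMUST00000081848.12) and 89.9% of Cyp51 (ENSMUST00000001507.4). For these 5 genes the summed level is therefore mostly that of 1 transcript.

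Idi1 was split over 3 coding transcripts, ENSMUST00000177397.7 with 49.4%, ENSMUST00000177400.7 with 28.7% and ENSMUST00000169314.8 with 18.6% of its FPKM. ENSMUST00000177400.7 held 2.39, 2.72, 0.724 and 2.16 FPKM in NLH and 0.497 and 1.34 FPKM in LH mice 1 and 2, and was at practically 0 in LH mice 3 and 4. An unnamed transcript assembled at the Idi1 locus, not counted in the gene, had a mean of 5.16 FPKM, close to the 5.44 FPKM of Idi1 itself. Adding it lowered the NLH vs. Ctrl difference of Idi1 from 0.60 ± 0.23 to 0.34 ± 0.21 (SE), which no longer reached an unadjusted p under 0.05 in limma (adjusted p = 0.97). With the unnamed transcripts added, Hmgcs1, Sqle and Cyp51 were the 3 of 7 members that did.

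Lss was spread over 5 transcripts with 11.7% to 26.6% of its FPKM each, and those annotated as retaining an intron held 48.2% of it in HC mice, 64.7% in Ctrl mice, 66.9% in NLH and 59.6% in LH. The full-length coding transcript ENSMUST00000048678.6, of 22 exons, held 18.6%, and a coding fragment of 314 bases, ENSMUST00000163049.1, held 22.7%. That fragment was at 1.93, 4.14, 0.656 and 0 FPKM in HC and at 0 in 1 Ctrl, 2 NLH and 2 LH mice. Its high values in HC mice 1 and 2 are those in which the Lss sum was highest, at 5.51 and 7.09 FPKM. The intron-retaining transcripts together had 2.36 ± 0.418 FPKM in HC mice, 2.11 ± 0.0874 in Ctrl mice, 2.35 ± 0.152 in NLH and 2.23 ± 0.346 in LH (SD, n = 4).

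The methods' t-test, on FPKM of single transcripts at an unadjusted p under 0.05, called 4 of 23 member transcripts in NLH vs. Ctrl, against 7.2% of all transcripts. Those higher in NLH were the main transcripts of Hmgcs1, Sqle and Cyp51, and the lower one was an intron-retaining Lss transcript, ENSMUST00000162475.7, at 0.382 against 0.459 FPKM. In LH vs. Ctrl it called 2 of 23, the main transcripts of Hmgcs1 and Fdps, both higher in LH, against 7.69% of all transcripts. In LH vs. NLH it called 2 of 23, both lower in LH, ENSMUST00000177400.7 of Idi1 at 0.459 against 2.00 FPKM and the intron-retaining ENSMUST00000199909.1 of Cyp51 at 0.116 against 0.532 FPKM, against 4.47% of all transcripts. Both are near 0 in LH mouse 3, and neither was called without it. In Ctrl vs. HC it called 0 of 23, against 6.68% of all transcripts, and 0 of 23 had an unadjusted limma p under 0.05. These counts moved with single mice, from 0 to 6 in NLH vs. Ctrl (0 without Ctrl mouse 1, Ctrl mouse 3 or NLH mouse 3), from 0 to 5 in LH vs. Ctrl (0 without Ctrl mouse 3, Ctrl mouse 4, LH mouse 1 or LH mouse 2) and from 0 to 2 in Ctrl vs. HC (2 without HC mouse 3). After adjustment over all transcripts, by this test or by limma, no member transcript was called in any comparison.

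The members were positively correlated over the 16 mice, in all 21 pairs of genes, with a median Pearson r of 0.62 for log2(FPKM + 0.1). The median over all pairs of the 10436 genes with a mean of at least 1 FPKM was 0.27, and the cause of this shared correlation was not tested. The highest values were 0.89 for Hmgcs1 with Sqle (rho 0.92), 0.84 for Sqle with Fdft1 (rho 0.85) and 0.81 for Hmgcs1 with Fdft1 (rho 0.81). In permutation tests of the 21 pairs, 13 had an adjusted p under 0.05 for r and 12 for rho. These tests shuffle mice across groups and compare with an r of 0, not with the 0.27 of all genes. The share of all gene pairs that would pass is not given here, so these counts do not set the members apart from other genes. The adjusted p was 2.1e-04 for Hmgcs1 with Sqle, and r was 0.86 without the 2 mice farthest from the Hmgcs1 median.

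Divided by the size factors, the median r of the 21 pairs was 0.46 against a median of 0 over all genes. On this scale 6 pairs had an adjusted permutation p under 0.05 for r, 6 for rho and 4 for both, again with no share of all gene pairs beside them. Hmgcs1 with Sqle stood at r = 0.84 and rho = 0.86 (adjusted permutation p = 0.0021 for r), and at 0.81 without the 2 farthest mice. The other 5 were Hmgcs1 with Fdft1 at 0.64 (rho 0.50, with an adjusted permutation p of 0.15 for rho), Hmgcs1 with Fdps at 0.63, Sqle with Fdft1 at 0.72, Idi1 with Fdft1 at 0.61 and Fdft1 with Cyp51 at 0.60. Idi1 with Fdft1 also missed the threshold for rho, at 0.47. Without the 2 farthest mice Idi1 with Fdft1 fell to 0.13 and so rested on those mice, while the other 4 stood between 0.57 and 0.67. Within groups, after group means were removed, the median was 0.59 as deposited, against 0.32 over all genes, and 0.34 when scaled, against 0. On the scaled values 15 of 21 pairs were then above 0, and the lowest r was -0.27. Part of the correlation was thus present among mice treated alike.

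For Lss, r with the other 6 members lay between 0.023 and 0.46 as deposited, and between -0.24 and 0.35 when scaled, and no pair with Lss had an adjusted p under 0.05. Its highest r was that with Idi1, which was 0.71 on both scales without the 2 mice farthest from the Idi1 median, and 0.52 as deposited within groups. The 15 pairs without Lss had a median r of 0.72 as deposited and 0.56 when scaled. Idi1 and Fdps formed the weakest of these 15 pairs, at 0.18 as deposited and -0.16 when scaled.

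**Figure D4:**
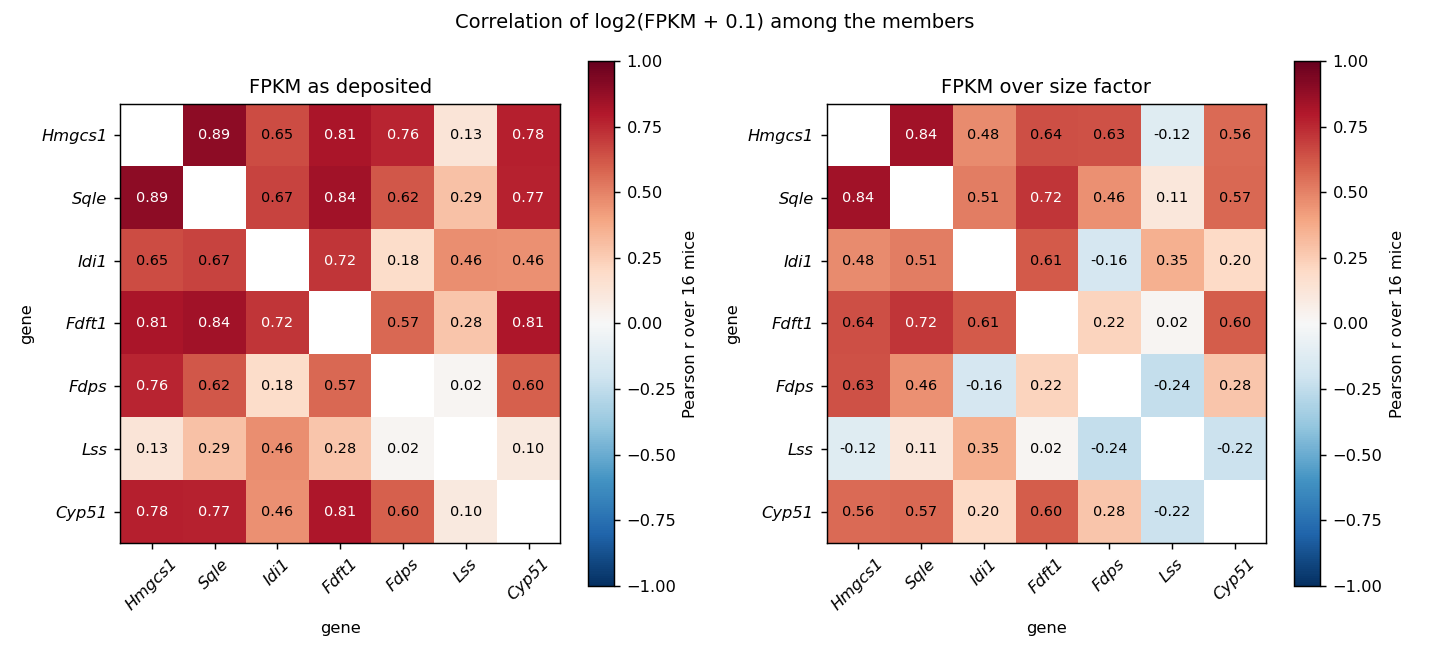
Pearson r over 16 mice between each 2 members, for log2(FPKM + 0.1) as deposited (left) and after division by the size factor (right), on a colour scale from -1 to 1. Hmgcs1, Sqle, Fdft1 and Cyp51 form a block of r between 0.77 and 0.89 on the left and between 0.56 and 0.84 on the right, and the Lss row lies between 0.023 and 0.46 on the left and between -0.24 and 0.35 on the right.

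The genes whose log2 level was most like the mean of the 7 standardized members over the 16 mice, out of 10429, were Rab11a (r = 0.94), Vdac2 (0.93), Ensa (0.93), Cltc (0.93), Pcmt1 (0.92), Scn2a1 (0.92), Ddx1 (0.91), Pde1a (0.91), Hnrnpul1 (0.91) and Elac1 (0.91). None of them belongs to the cholesterol lists, and the median r over all 10429 genes was 0.42. After scaling, Vdac2 (0.85), Ensa (0.84), Scn2a1 (0.82), Ddx1 (0.80) and Cltc (0.79) were still among the 10 most like, and the median over all genes was -0.0030. Of the cholesterol genes outside the members, Sc5d (0.86, and 0.73 when scaled), Stard4 (0.85 and 0.61), Acat2 (0.85 and 0.68) and Msmo1 (0.78 and 0.59) were among the most like, and were named after their values were seen where the rule did not name them. Their ranks as deposited were 83, 98, 103 and 486 out of 10429. Other cholesterol genes had a negative r when scaled, among them Srebf2 (0.38 as deposited and -0.48 scaled), Srebf1 (-0.012 and -0.48), Cyp46a1 (-0.13 and -0.44) and Dhcr7 (0.28 and -0.26).

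The rest of the synthesis route was followed in 12 further enzymes. In LH vs. Ctrl 4 of 12 reached an unadjusted p under 0.05, all higher in LH, against 7.03% of all genes in that direction, and none passed after adjustment. Over all 42 genes of the 4 lists, 5 reached it in this comparison, beside 11.5% of all genes, and between 2 and 9 did when 1 mouse was left out. Without LH mice 3 and 4, 18 of the 42 reached it, against 24.3% of all genes, and 5 passed after adjustment, against 5.42% of all genes (Clu, Ggps1, Hsd17b7, Insig1 and Msmo1, of which Clu, a lipid carrier, was named after its values were seen). With size factors too, 5 reached it against 12.3% of all genes, and 0 passed against 0.0712%. The median log2 difference of the 12 enzymes was 0.07, beside 0.27 for the 7 members.

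Msmo1, which acts later in the route than Cyp51, was at 15.8 ± 1.94 FPKM in Ctrl, 19.1 ± 2.96 in NLH and 20.8 ± 2.74 in LH (SD, n = 4). It differed by 0.39 ± 0.13 in LH vs. Ctrl (limma adjusted p = 0.25). All LH mice were above all Ctrl mice on both scales, as in 4.05% of all genes as deposited and 4.17% with size factors. Ggps1, which leads off the route to longer isoprenoids, differed by 0.35 ± 0.14 and Hsd17b7 by 0.31 ± 0.14. In NLH vs. Ctrl 2 of 12 reached an unadjusted p under 0.05, both higher, against 5.59% of all genes in either direction and 4.43% in that direction. They were Pmvk (phosphomevalonate kinase), at 0.56 ± 0.17 (adjusted p = 0.57) and Sc5d, a desaturase of the last steps, at 0.35 ± 0.14 (adjusted p = 0.75).

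Pmvk was the 1 gene of the list that was lower in LH than in NLH at an unadjusted p under 0.05, at -0.51 ± 0.17, against 7.54% of all genes in either direction. It held 4.83, 4.82, 5.77 and 4.16 FPKM in NLH, 4.21, 4.31, 2.78 and 2.60 FPKM in LH and 2.89 to 3.53 FPKM in Ctrl, so LH mice 3 and 4 lay below every Ctrl mouse. Dhcr7, a reductase of the last steps, differed by -0.16 ± 0.23 in LH vs. Ctrl and by -0.18 ± 0.23 in NLH vs. Ctrl, and did not reach an unadjusted p under 0.05. In Ctrl vs. HC 0 of the 12 enzymes reached it. The enzymes Mvd, Nsdhl and Ebp were not analysed here.

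Among 9 genes of sterol sensing and regulation, Srebf1, which encodes the factor that mainly serves fatty acid synthesis, was lower in NLH, at 3.52 to 4.79 FPKM against 5.04 to 7.17 FPKM in Ctrl. The groups did not overlap, and the difference was -0.60 ± 0.26 (limma adjusted p = 0.80; exact permutation p = 0.0286). All NLH mice lay above all Ctrl mice in 4.76% of all genes, and the share lying wholly below is not given here. LH mice were split, at 7.80 and 7.32 FPKM in mice 1 and 2 and 3.32 and 3.66 FPKM in mice 3 and 4. Srebf2 was at 11.3 ± 0.701 FPKM in Ctrl, 10.8 ± 1.52 in NLH and 9.95 ± 3.09 in LH (SD, n = 4). It differed by -0.06 ± 0.17 in NLH vs. Ctrl and by -0.23 ± 0.17 in LH vs. Ctrl as deposited. With size factors the LH difference was -0.26 ± 0.10 and reached an unadjusted p under 0.05 (limma adjusted p = 0.24). Its LH spread had the same split, 11.8 and 13.3 against 7.23 and 7.42 FPKM.

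Insig1, the sterol sensor that holds SCAP in the endoplasmic reticulum and is itself a target of SREBP2, was at 7.28, 8.38, 7.18 and 7.07 FPKM in Ctrl. LH mice ranged from 6.13 to 10.5 FPKM, with LH mouse 4 below every Ctrl mouse. Insig1 held 9.25 to 10.1 FPKM in HC, and HC and Ctrl did not overlap (-0.39 ± 0.15, limma adjusted p = 1, exact permutation p = 0.0286). With size factors they did not overlap either, and 2.89% of all genes had all Ctrl mice below all HC mice on that scale. Insig1 differed by 0.29 ± 0.15 in NLH vs. Ctrl and by 0.26 ± 0.15 in LH vs. Ctrl. Its Ctrl mean was the lowest of the 4 groups, as in all members but Fdps.

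None of the 12 genes of uptake and intracellular transport reached an unadjusted p under 0.05 in any comparison on the deposited values. In NLH vs. Ctrl 11 of 12 were higher and in LH vs. Ctrl 10 of 12, with median log2 differences of 0.14 and 0.11, where 66.9% and 54.1% of genes with a mean of at least 1 FPKM were higher. With size factors 9 of 12 were higher in each comparison, with medians of 0.06 and 0.09, where 49.7% and 49.0% of genes with that mean were higher, with medians of -0.00083 and -0.0063. On the scaled values 1 of 12 was lower in Ctrl than in HC and 1 was lower in LH than in NLH at that threshold. Lrp8, a receptor for apolipoprotein E and reelin, differed by 0.12 in NLH vs. Ctrl and -0.23 in LH vs. Ctrl.

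Of 9 genes of efflux, carriers and turnover, Apoe, the main carrier of cholesterol between astrocytes and neurons, was at 156, 187, 201 and 174 FPKM in NLH and 109 to 154 FPKM in Ctrl. The difference was 0.40 ± 0.14 (limma adjusted p = 0.71; exact permutation p = 0.0286), and 0.33 ± 0.083 when scaled. All NLH mice were above all Ctrl mice on both scales, as in 4.76% of all genes as deposited and 3.52% with size factors. Abca1, which exports cholesterol, had means between 4.11 and 4.27 FPKM in the 4 groups. Cyp46a1, the neuronal hydroxylase by which the brain disposes of cholesterol, was higher in Ctrl than in HC by 0.26 ± 0.12 and differed by -0.23 ± 0.12 in NLH vs. Ctrl. Nr1h2, which encodes a liver X receptor, was lower in LH than in Ctrl by 0.97 ± 0.44 on the log2 scale and rested on LH mouse 3, at 0.404 FPKM against 2.12 to 3.79 FPKM in the other LH mice. Ch25h and Mbtps2 were not analysed here.

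**Figure D5:**
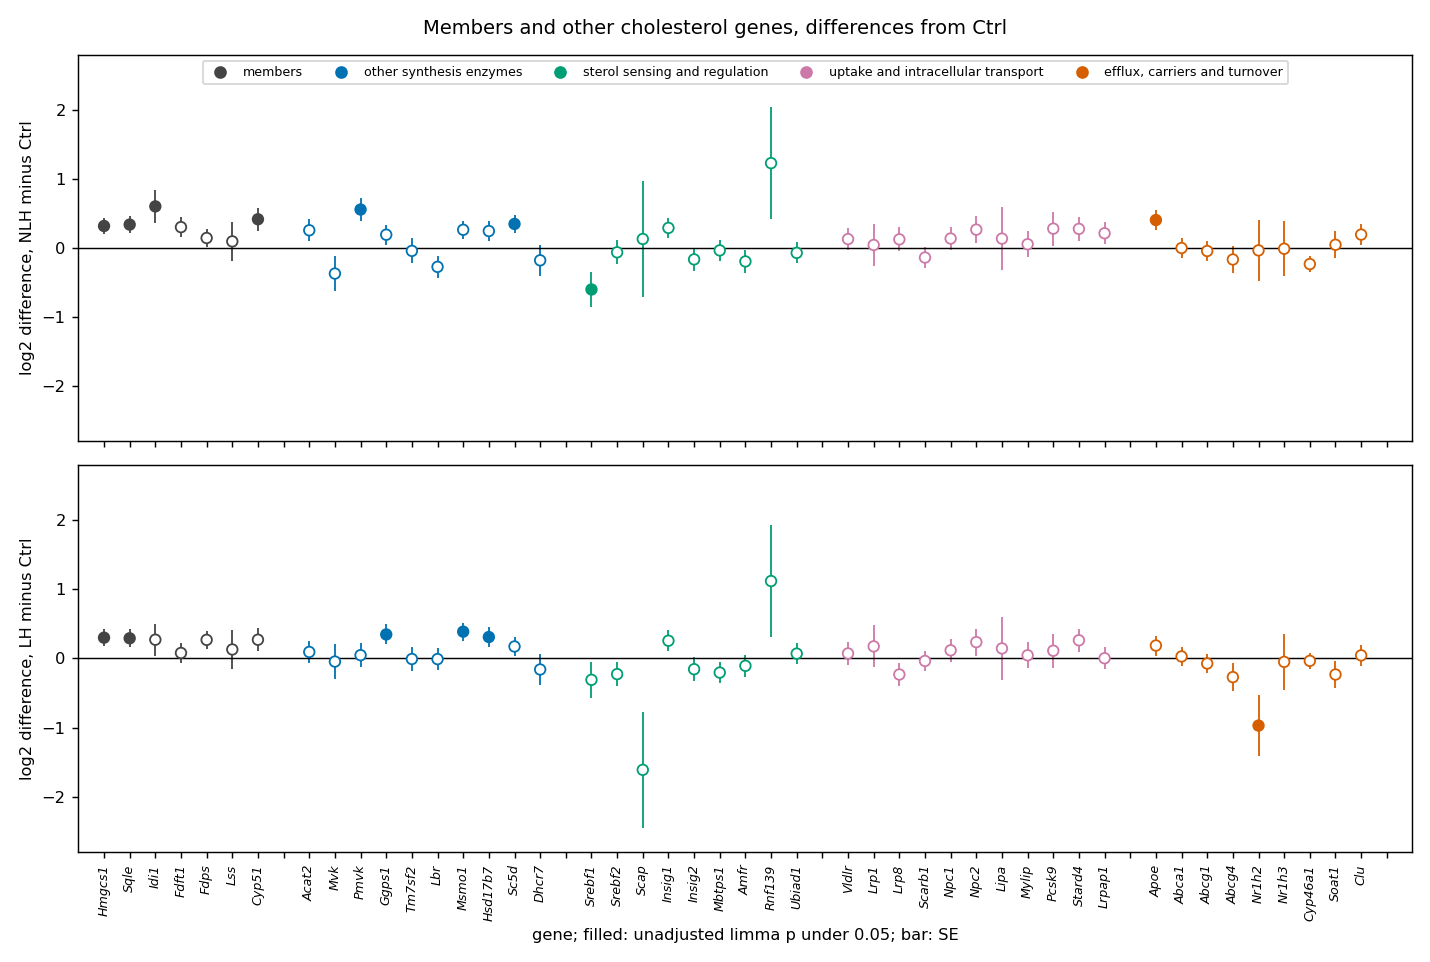
Log2 difference from Ctrl (vertical axis) in NLH (upper panel) and LH (lower panel) of the 7 members and other genes of the cholesterol lists, with limma's standard error as a bar and filled points at an unadjusted p under 0.05. The 7 members lie above 0 in both panels. Of the sensing list 3 of 9 and of the efflux list 3 of 9 lie above 0 in each panel, with values as far from 0 as 1.23 for Rnf139 in NLH and -1.61 for Scap in LH, both open points.

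Marker genes of neurons and glia were present, and none of the lists used is particular to the hippocampus. All 6 neuronal markers were present in every mouse, with a summed level of 640 to 860 FPKM, and astrocyte markers summed to 290 to 432 FPKM. Markers of oligodendrocytes and myelin, cells that make much cholesterol, summed to 328 to 434 FPKM in Ctrl, 388 to 430 in HC, 393 to 505 in NLH and 265 to 515 in LH, and none of 5 reached an unadjusted p under 0.05 in any comparison. Over the 16 mice their log2 sum had r = 0.66 with the mean of the standardized members, beside 0.63 for neuronal, 0.60 for microglial, 0.58 for striatal, 0.57 for astrocyte, 0.48 for choroid plexus, 0.29 for endothelial and 0.11 for red blood cell markers, on deposited values that share the size factor. Choroid plexus markers ranged from 1.45 to 76.0 FPKM with all 4 groups overlapping, and endothelial markers summed to 9.58 to 11.3 FPKM in Ctrl and 9.35 to 18.9 FPKM in LH. Microglial markers summed to 25.5 to 38.8 FPKM, red blood cell markers to 144 to 459 FPKM and striatal markers to 6.67 to 16.4 FPKM over the 16 mice. Folr1, Aqp1 and Kcne2 of the choroid plexus, Hba-a2 of red blood cells and Drd2 of the striatum were at 0 in at least 1 mouse. No marker reached an unadjusted p under 0.05 in Ctrl vs. HC or NLH vs. Ctrl, and in LH vs. Ctrl 2 neuronal, 1 microglial, 1 endothelial and 2 striatal markers did, against 11.5% of all genes. In LH vs. NLH 1 endothelial and 1 striatal marker did, against 7.54% of all genes. None of these markers passed after adjustment. The part of these cell types in the members' differences was not tested.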

How the data were processed

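The authors deposited FPKM values for each assembled transcript and mouse. Per the methods, 1 total RNA library per mouse was sequenced as paired ends, aligned to mm10 with HISAT2, assembled and merged with String Tie, and quantified with Cufflinks. The submitters' processing notes instead name STAR 2.42a as an aligner, besides StringTie 1.2.3, and how low transcripts were filtered is not given in the sources used here.

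Transcripts carrying a gene name were summed per gene. The log2(FPKM + 0.1) values of the 16 mice entered limma 3.58.1 (R 4.3.3), with a mean for each of 4 groups and moderation by trend and with robust settings. Its p-values were adjusted by Benjamini-Hochberg over all 18287 genes or all transcripts. Fold changes on this scale understate those of low genes. The fit shares 1 spread among the groups, although the median SD of log2 levels was 0.36 in LH and 0.14 in Ctrl, so errors of LH comparisons may be too small. Single genes were compared by exact permutation, correlations by 100000 permutations. The 42 other pathway genes and the markers came from fixed lists. Counts and medians cover these lists whole, and single values of some of their genes are not reported here. Named genes were the members, transcripts with at least 10% of a gene or called, chosen pathway genes, any other pathway gene at an unadjusted p under 0.05, and the 10 genes most like the members. Members and lists were chosen with earlier results of these data known. Positions came from GENCODE vM21. No 2 libraries were identical, and every script with a test across genes was tested on simulated data. Python 3.11.15, numpy 2.4.6, pandas 2.3.3, scipy 1.17.1, matplotlib 3.10.9 and the R package data.table (1.17.8) were used.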

Additional observations from a re-analysis of the deposited data

Results flagged for a closer look

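In 4 of the 28 member-by-group sets of 4 mice, 1 mouse lay far from the other 3 by Dixon's criterion, which chance alone meets in about 1 of 20 sets (1.4 of 28). NLH mouse 4 was low in Sqle, at 6.42 FPKM against 8.04 to 8.32 in the other NLH mice, and in Fdft1, at 7.60 FPKM against 9.70 to 10.1. Its size factor was 0.991, close to that of NLH mouse 1 at 0.987. Ctrl mouse 2 was high in Fdps, at 11.2 FPKM against 9.43 to 9.69 FPKM in the other Ctrl mice. Ctrl mouse 1 was low in Lss, at 2.416 FPKM against 3.44 to 3.64 FPKM.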

How the results depend on the processing

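Alternatives were another pseudocount or filter, division by size factors, fits of the 2 groups compared, the methods' test with unequal variances, and leaving out mice. Leaving out LH mice 3 and 4, adding the unnamed transcripts, combining the block with size factors, and fitting only 2 groups for the pathway lists were chosen after seeing the data. No member passed after adjustment except Hmgcs1 in LH vs. Ctrl without LH mice 3 and 4 (1 member and 5 other pathway genes). In Ctrl vs. HC the members at an unadjusted p under 0.05 (0) became 2 with size factors, with or without LH mice 3 and 4, and 1 without those mice, and the other pathway genes (2) became 5 with 2 groups and 4 without LH mice 3 and 4 on both scales. In NLH vs. Ctrl the other pathway genes (4) became 7 with size factors or 2 groups, 10 without LH mice 3 and 4, and 12 with size factors too. In LH vs. Ctrl the members (2) became 1 with 2 groups, 5 without LH mice 3 and 4, and 0 with size factors too, and the other pathway genes (5) became 2 with 2 groups and 18 without LH mice 3 and 4. In LH vs. NLH the other pathway genes (3) became 9 without LH mice 3 and 4. The cause of these moves was not tested. Shares of all genes are given above only with size factors and, in LH vs. Ctrl, without LH mice 3 and 4. In the latter fit that share rose from 11.5% to 24.3%, so such counts alone show nothing particular to the lists.

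Member transcripts called by the methods' test in Ctrl vs. HC (0) became 2 with size factors. In NLH vs. Ctrl (4) and LH vs. Ctrl (2) they became 0 after adjustment, and in LH vs. Ctrl 0 with unequal variances and 4 with size factors. In LH vs. NLH (2) they became 1 on the log2 scale, with unequal variances, with a mean of at least 1 FPKM or with size factors, and 0 after adjustment.

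With 1 mouse left out at a time, members at an unadjusted p under 0.05 ranged from 0 to 1 in Ctrl vs. HC, 2 to 6 in NLH vs. Ctrl, 0 to 5 in LH vs. Ctrl and 0 to 1 in LH vs. NLH. The other pathway genes ranged from 1 to 3, 2 to 9, 2 to 9 and 1 to 7, and the member transcripts from 0 to 2, 0 to 6, 0 to 5 and 0 to 1. Shares of all genes or transcripts are not given for these fits. Differences near 0 changed sign: in Ctrl vs. HC Cyp51 ranged from -0.178 to 0.026, Fdft1 from -0.106 to 0.035 and Fdps from -0.011 to 0.079. Lss ranged from -0.039 to 0.212 in NLH vs. Ctrl, from -0.004 to 0.405 in LH vs. Ctrl and from -0.097 to 0.310 in LH vs. NLH. In LH vs. NLH Hmgcs1 ranged from -0.121 to 0.066, Sqle from -0.132 to 0.013 and Fdps from -0.0 to 0.233. Also in LH vs. NLH, Hmgcs1 was 0.028 with size factors, 0.007 with the unnamed transcripts and 0.138 without LH mice 3 and 4, where Cyp51 was 0.081 and Sqle 0.066.

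The replicate numbers name mice and did not pair them: over 24 pairs of mice with the same number the median r of their deviations from the group means was -0.023, against 0.0035 for other numbers, and 3 of 16 mice correlated best with their own number. With the number as a replicate block the members at an unadjusted p under 0.05 were 0, 4, 2 and 0 in the 4 comparisons, those in LH vs. Ctrl being Hmgcs1 and Fdps and no longer Sqle, and 2 in Ctrl vs. HC with size factors too, where Hmgcs1 was 0.028 in LH vs. NLH. The block in limma gave 2 member transcripts in NLH vs. Ctrl.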
